A study of Mus musculus with 24 samples.

Results

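Transcript levels were followed for 9 of the 49315 genes in the count table: the angiopoietin-like genes *Angptl2*, *Angptl4* and *Angptl6*, the metabolic genes *Cpt1a*, *Plin2* and *Pdk4*, and *Ppara*, *Ppard* and *Pparg*, which encode the peroxisome proliferator-activated receptors (PPARs). The genes were matched by name and had been chosen by their RNA levels in the 8 treatment groups, which were already known. Those levels are therefore given as a description, and no test is applied to any of the 9 genes. RNA came from MS03, an immortalized mouse Schwann cell line in which Cre had removed a floxed *Nf2* gene, so every group, the DMSO controls included, was Nf2-/-. MS03 is a single line, and no *Nf2*-intact counterpart was part of this experiment. Cells were kept for 24 h in DMSO, in 1 µM of an inhibitor of focal adhesion kinase (FAK; defactinib, VS-4718, GSK2256098 or IN10018, the last named ifebemtinib in the study) or in a PROTAC directed at FAK. A PROTAC joins a ligand of its target to a ligand of an E3 ubiquitin ligase, so that the target protein is marked for degradation. The PROTACs were PROTAC FAK degrader 1 (PROTAC-3) at 1 µM, GSK215 at 0.1 µM and BSJ-04-0146 at 0.1 µM. Since all 7 compounds act on the FAK protein, no transcript serves as a check of the treatments.

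There were 3 poly(A)-selected libraries per group, labelled as biological replicates, and 24 in all. The labels do not say whether these were separate cultures, so p-values measure the spread between these samples. Reads assigned to genes ranged from 14472462 to 21588406 in the 9 PROTAC libraries and from 21654444 to 27449516 in the other 15. Markers of the labelled cell type were only partly present. Among 10 Schwann cell markers, *Sox10* averaged 20.1 CPM (read counts scaled to a common library size) and *Ncam1* 55.5 CPM in DMSO, whereas *S100b*, *Gap43* and *Egr2* averaged 0.134 to 0.190 CPM. The 5 adipocyte markers summed to at most 0.342 CPM and the 5 endothelial markers to at most 0.789 CPM in any library. Of the macrophage markers, *Ptprc* and *Adgre1* had no read in DMSO and *Itgam* had 1, while *Csf1r* averaged 0.443 CPM and *Cd68* 3.35 CPM. Of the fibroblast markers, *Dcn* and *Lum* had none there, while *Pdgfra*, *Col1a1* and *Col3a1* averaged 12.4, 392 and 343 CPM.

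Angiopoietin-like proteins are secreted glycoproteins. ANGPTL4 blocks lipoprotein lipase, the enzyme that frees fatty acids from circulating triglycerides, and is a classic PPAR target. ANGPTL2 and ANGPTL6 are known for roles in inflammation, vessel growth and metabolism. PPARs are nuclear receptors that are activated by fatty acids and pair with retinoid X receptors on direct repeats of AGGTCA. CPT1A is the enzyme that commits long-chain fatty acids to mitochondrial oxidation, PLIN2 coats lipid droplets, and PDK4 switches off pyruvate dehydrogenase.

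*Angptl4* and *Angptl6* differed most between groups. *Angptl4* was 17.5-fold higher than DMSO with GSK215 and 20.2-fold higher with BSJ-04-0146, and it was 2.44-fold lower with PROTAC FAK degrader 1. *Angptl6* was 15.6-fold higher than DMSO with PROTAC FAK degrader 1, at 45.9 CPM, against 1.61 to 3.07 CPM in the other 7 groups. *Cpt1a* and *Plin2* were above DMSO in every library of all 3 PROTACs, *Ppard* was above DMSO with PROTAC FAK degrader 1 and below it with GSK215, and *Ppara*, *Pparg* and *Pdk4* had at most 14 reads in any library.

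Sequence before the RefSeq starts of *Cpt1a* and *Plin2* is shown because these genes were above DMSO with all 3 PROTACs and because each window holds the AGGTCA hexamer that PPARs and other nuclear receptors recognise. RefSeq start sites were at hand for 8 of the 9 genes, all but *Angptl4*, and windows of 250 bases before each start were searched on both strands. The windows below are from RefSeq (GRCm38.p6), 5′ to 3′ on the strand of the gene, without the bases that lie in an exon of the gene. For *Cpt1a* the window is not upstream of the whole gene: the GENCODE span begins earlier, at 3322334, and the window lies in an intron of that longer model. Capitals mark TGACCT, the hexamer read on the opposite strand, which begins 94 bases before the *Cpt1a* start and 218 bases before the *Plin2* start.
Cpt1a, chr19:3323051-3323284, plus strand: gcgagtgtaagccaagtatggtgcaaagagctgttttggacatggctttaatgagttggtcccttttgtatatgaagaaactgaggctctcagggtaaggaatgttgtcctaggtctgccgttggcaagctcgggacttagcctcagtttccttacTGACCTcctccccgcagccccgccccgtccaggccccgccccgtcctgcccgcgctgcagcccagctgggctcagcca
Plin2, chr4:86670061-86670309, minus strand: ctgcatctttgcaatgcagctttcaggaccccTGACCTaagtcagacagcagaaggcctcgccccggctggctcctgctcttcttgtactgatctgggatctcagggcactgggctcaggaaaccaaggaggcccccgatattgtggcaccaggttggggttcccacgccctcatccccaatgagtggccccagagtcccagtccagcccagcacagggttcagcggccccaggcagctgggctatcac

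The hexamer was also in 2 of the 3 *Pparg* windows and in none of the windows of *Angptl2*, *Angptl6*, *Pdk4*, *Ppara* and *Ppard*. It occurs in 14.0% of 32851 windows of this length over all genes, so its presence here is a description and does not set these genes apart. The full direct repeat, AGGTCA followed by any 1 base and a further AGGTCA, occurs in 0.0335% of the windows and in none of those of the 8 genes. No match in a window says only that these letters are not in it.

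Levels between genes were compared per kilobase of exon, in CPM per kb. In DMSO, *Plin2* stood at 36.1 CPM per kb and *Angptl2* at 31.9. *Cpt1a* followed at 9.40, *Ppard* at 7.56, *Angptl6* at 1.85 and *Angptl4* at 0.354. The 3 genes with few reads stood at 0.0604 (*Ppara*), 0.0195 (*Pparg*) and 0.0043 (*Pdk4*). Of the 3 receptors, *Ppard* was thus the one with appreciable RNA.

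Among secreted factors, *Angptl4* (chr17:33773750-33781830, minus strand, GRCm38) was close to the lower limit of detection in DMSO, with 1.13, 1.73 and 0.906 CPM in the 3 libraries, from 22 to 46 reads. GSK215 libraries had 23.4, 23.0 and 20.8 CPM, and BSJ-04-0146 libraries had 26.9, 26.0 and 24.6 CPM. All 6 libraries lay above every other library of the experiment, and the log2 fold changes against DMSO were 4.13 (SE 0.13) and 4.34 (SE 0.13). Leaving out 1 library gave 3.94 to 4.46 for GSK215 and 4.14 to 4.66 for BSJ-04-0146. PROTAC FAK degrader 1 libraries had 0.413, 0.313 and 0.840 CPM, from 6 to 16 reads, all below the lowest DMSO library. The log2 fold change was -1.29 (SE 0.28), and -1.78 to -0.96 when 1 library was left out. The kinase inhibitor VS-4718 gave 2.51, 3.19 and 2.96 CPM, between DMSO and the GSK215 libraries, with a log2 fold change of 1.17 (SE 0.18). Defactinib (mean 1.84 CPM) and GSK2256098 (mean 1.52 CPM) overlapped DMSO, as did IN10018 (mean 1.20 CPM). In order of mean level, PROTAC FAK degrader 1 came lowest, then IN10018, DMSO and GSK2256098, whose neighbours overlapped, then defactinib, VS-4718, GSK215 and BSJ-04-0146, each without overlap with the next.

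Marker sums also differed between the groups. The sum of the 10 Schwann cell markers, 9 of which passed the filter on low counts, was 92.7 to 97.0 CPM in DMSO, 272 to 281 CPM with GSK215, 232 to 258 CPM with BSJ-04-0146 and 145 to 163 CPM with VS-4718. It was also above DMSO with defactinib (127 to 139 CPM) and GSK2256098 (109 to 119 CPM), where *Angptl4* overlapped DMSO, and below DMSO with IN10018 (87.2 to 92.6 CPM) and PROTAC FAK degrader 1 (84.9 to 89.5 CPM). *Sox10*, the transcription factor of the Schwann lineage, averaged 97.5 CPM with either GSK215 or BSJ-04-0146, and *S100b* stayed under 1 CPM. The largest part of the sum in DMSO was *Ncam1*, at 55.5 CPM. With IN10018, *Ncam1* averaged 49.8 CPM, while *Sox10* averaged 22.6 CPM against 20.1 CPM in DMSO. With PROTAC FAK degrader 1, *Sox10* averaged 12.2 CPM, while *Ncam1* averaged 58.9 CPM and *Erbb3* 5.36 CPM against 3.48 CPM in DMSO. The sum of the 5 fibroblast markers, 3 of which passed the filter, was 737 to 768 CPM in DMSO, 1125 to 1151 CPM with GSK215, 868 to 912 CPM with BSJ-04-0146 and 607 to 624 CPM with PROTAC FAK degrader 1. It was 852 to 949 CPM with defactinib, 969 to 1020 CPM with VS-4718, 855 to 915 CPM with GSK2256098 and 714 to 765 CPM with IN10018. *Pdgfra*, a receptor of fibroblasts and other mesenchymal cells, averaged 12.4 CPM in DMSO, 26.3 with GSK215 and 26.0 with BSJ-04-0146. *Col1a1*, a collagen gene, averaged 392 CPM in DMSO, 446 with GSK215, 346 with BSJ-04-0146 and 286 with PROTAC FAK degrader 1. *Col3a1*, a further collagen gene, averaged 343 CPM in DMSO, 665 with GSK215, 515 with BSJ-04-0146 and 321 with PROTAC FAK degrader 1. *Dcn* and *Lum* had at most 3 reads in any library. The part of these markers in the *Angptl4* result was not tested, and in bulk RNA a change in cell number and a change in RNA per cell cannot be told apart.

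*Angptl6* (chr9:20873808-20879727, minus strand) had 2.85, 3.23 and 2.72 CPM in the DMSO libraries, from 63 to 86 reads. With PROTAC FAK degrader 1 the libraries had 48.8, 44.7 and 44.2 CPM, from 842 to 1064 reads, and no other library exceeded 3.34 CPM. The log2 fold change was 3.96 (SE 0.090). The remaining PROTACs went the other way, since GSK215 libraries had 2.23, 1.71 and 2.02 CPM and BSJ-04-0146 libraries 2.30, 1.90 and 1.77 CPM, all below DMSO. VS-4718 had the lowest mean, 1.61 CPM, with a log2 fold change of -0.86 (SE 0.15). Defactinib (2.10 CPM) and GSK2256098 (2.13 CPM) were also below DMSO in every library, and IN10018 (3.07 CPM) overlapped it. The 5 lowest groups overlapped their neighbours in the order of levels.

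Reads of *Angptl6* could in part come from *A230050P20Rik*, which lies on the opposite strand and shares 265 bases (16.8%) of its exon length, since the sources used here do not state whether counting used the strand. That gene had 0 to 0.551 CPM in any library, and its part in the *Angptl6* reads was not tested. The sum of the 5 macrophage markers, 2 of which passed the filter, was 10.8 to 11.7 CPM with this drug against 3.48 to 3.99 CPM in DMSO. It was also above DMSO with GSK215 (5.92 to 7.61 CPM) and BSJ-04-0146 (7.65 to 9.03 CPM), where *Angptl6* was below DMSO. Most of the sum was *Cd68*, a lysosomal glycoprotein (3.35 CPM in DMSO, 10.9 with PROTAC FAK degrader 1, 5.96 with GSK215 and 7.56 with BSJ-04-0146). *Csf1r* averaged 0.443 CPM in DMSO and 0.288 CPM with PROTAC FAK degrader 1, and *Ptprc*, *Adgre1* and *Itgam* had at most 1 read in any library of these 2 groups. The part of these markers in the *Angptl6* result was not tested.

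*Angptl2* (chr2:33216069-33247717, plus strand) was the most abundant of the angiopoietin-like transcripts per kilobase in DMSO, where the libraries had 199, 201 and 202 CPM. Libraries of PROTAC FAK degrader 1 had 103, 103 and 102 CPM, and no library of another group was below 196 CPM. The log2 fold change was -0.97 (SE 0.030), or 1.96-fold lower. GSK215 (262, 269 and 262 CPM) and BSJ-04-0146 (250, 254 and 246 CPM) lay above all other groups, with log2 fold changes of 0.40 and 0.32. Defactinib, VS-4718 and GSK2256098 had means of 210, 224 and 234 CPM, above DMSO in every library, and IN10018 (200 CPM) overlapped DMSO. *Angptl2* lies inside the span of *Ralgps1*, a gene of the opposite strand with 8.07 to 18.2 CPM and no shared exon base.

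*Angptl2* and *Angptl4* thus moved the same way with each PROTAC, and *Angptl6* the opposite way. With PROTAC FAK degrader 1, *Angptl6* was high while *Angptl4* and *Angptl2* were low. With GSK215 and BSJ-04-0146, *Angptl4* and *Angptl2* were high while *Angptl6* was low.

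Of the receptors, *Ppard* (chr17:28232700-28301474, plus strand), which encodes the widely expressed PPARδ, had 57.3, 55.7 and 57.4 CPM in the DMSO libraries. PROTAC FAK degrader 1 libraries had 84.8, 79.3 and 78.9 CPM, above every other library, with a log2 fold change of 0.51 (SE 0.045). GSK215 libraries had 47.8, 50.01 and 50.3 CPM, below DMSO (log2 fold change -0.20, SE 0.049; -0.076 with library totals alone), and BSJ-04-0146 libraries had 51.3, 52.6 and 57.0 CPM and overlapped DMSO. For BSJ-04-0146 the sign turned with the scaling, at -0.082 with TMM factors and 0.027 with library totals alone. VS-4718 (64.0 CPM) and IN10018 (63.3 CPM) were above DMSO in every library, defactinib (50.3 CPM) below it, and GSK2256098 (57.6 CPM) overlapped it. The *Ppard* range was narrow, from 49.4 to 81.0 CPM in group means, and the 7 lowest groups overlapped their neighbours in order.

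*Ppara* (chr15:85734983-85802819), the receptor best known from liver, had 1 to 14 reads per library and 112 in all. GSK215 libraries held 3, 9 and 14 of them and DMSO libraries 6, 8 and 3, so the groups overlapped. *Pparg* (chr6:115360951-115490399), the receptor of fat cell differentiation, had 0 to 4 reads per library and 21 in all, in 12 of the 24 libraries. No GSK2256098 library held a *Pparg* read, and a count of 0 still allows up to 3 reads in a library. Differences between groups were not detectable at this depth for either receptor, and neither passed the filter on low counts.

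Among the metabolic genes, *Cpt1a* (chr19:3322334-3385733, plus strand) had 72.4, 73.0 and 70.1 CPM in DMSO. GSK215 libraries had 168, 167 and 169 CPM and BSJ-04-0146 libraries 206, 200 and 200 CPM, the highest of the experiment. Log2 fold changes were 1.22 (SE 0.034) and 1.49 (SE 0.034), or 2.34-fold and 2.81-fold. PROTAC FAK degrader 1 (102, 107 and 110 CPM) and VS-4718 (101, 94.3 and 97.3 CPM) came next, with log2 fold changes of 0.56 (SE 0.035) and 0.44 (SE 0.035). Defactinib (75.4 CPM) and GSK2256098 (74.1 CPM) were just above DMSO in every library, and IN10018 (69.7 CPM) overlapped DMSO. From VS-4718 upward no group overlapped the next in order.

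*Plin2* (chr4:86648386-86670060, minus strand) had 129, 130 and 122 CPM in DMSO. BSJ-04-0146 libraries were highest at 212, 222 and 202 CPM, PROTAC FAK degrader 1 libraries followed at 177, 175 and 166 CPM, and GSK215 libraries had 151, 154 and 156 CPM. None of these groups overlapped, and log2 fold changes against DMSO were 0.74 (SE 0.038), 0.44 (SE 0.038) and 0.28 (SE 0.039). PROTAC FAK degrader 1 was used at 1 µM and the other PROTACs at 0.1 µM, here as for every gene. VS-4718 (145 CPM) was above DMSO, defactinib (117 CPM) and GSK2256098 (116 CPM) below it, and IN10018 (128 CPM) overlapped it.

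*Pdk4* (chr6:5483351-5496309, minus strand), often used as a readout of PPAR activity, was near absence in every group. It had 0 to 2 reads per library, 17 in all, in 13 of the 24 libraries. Its counts were 1, 0 and 0 in DMSO, 2, 2 and 0 with GSK215, 0, 1 and 0 with BSJ-04-0146 and 1, 0 and 0 with PROTAC FAK degrader 1. No difference was detectable at this depth, and the fold changes of *Angptl4* and *Cpt1a* had no measurable counterpart in *Pdk4*.

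**Figure D1:**
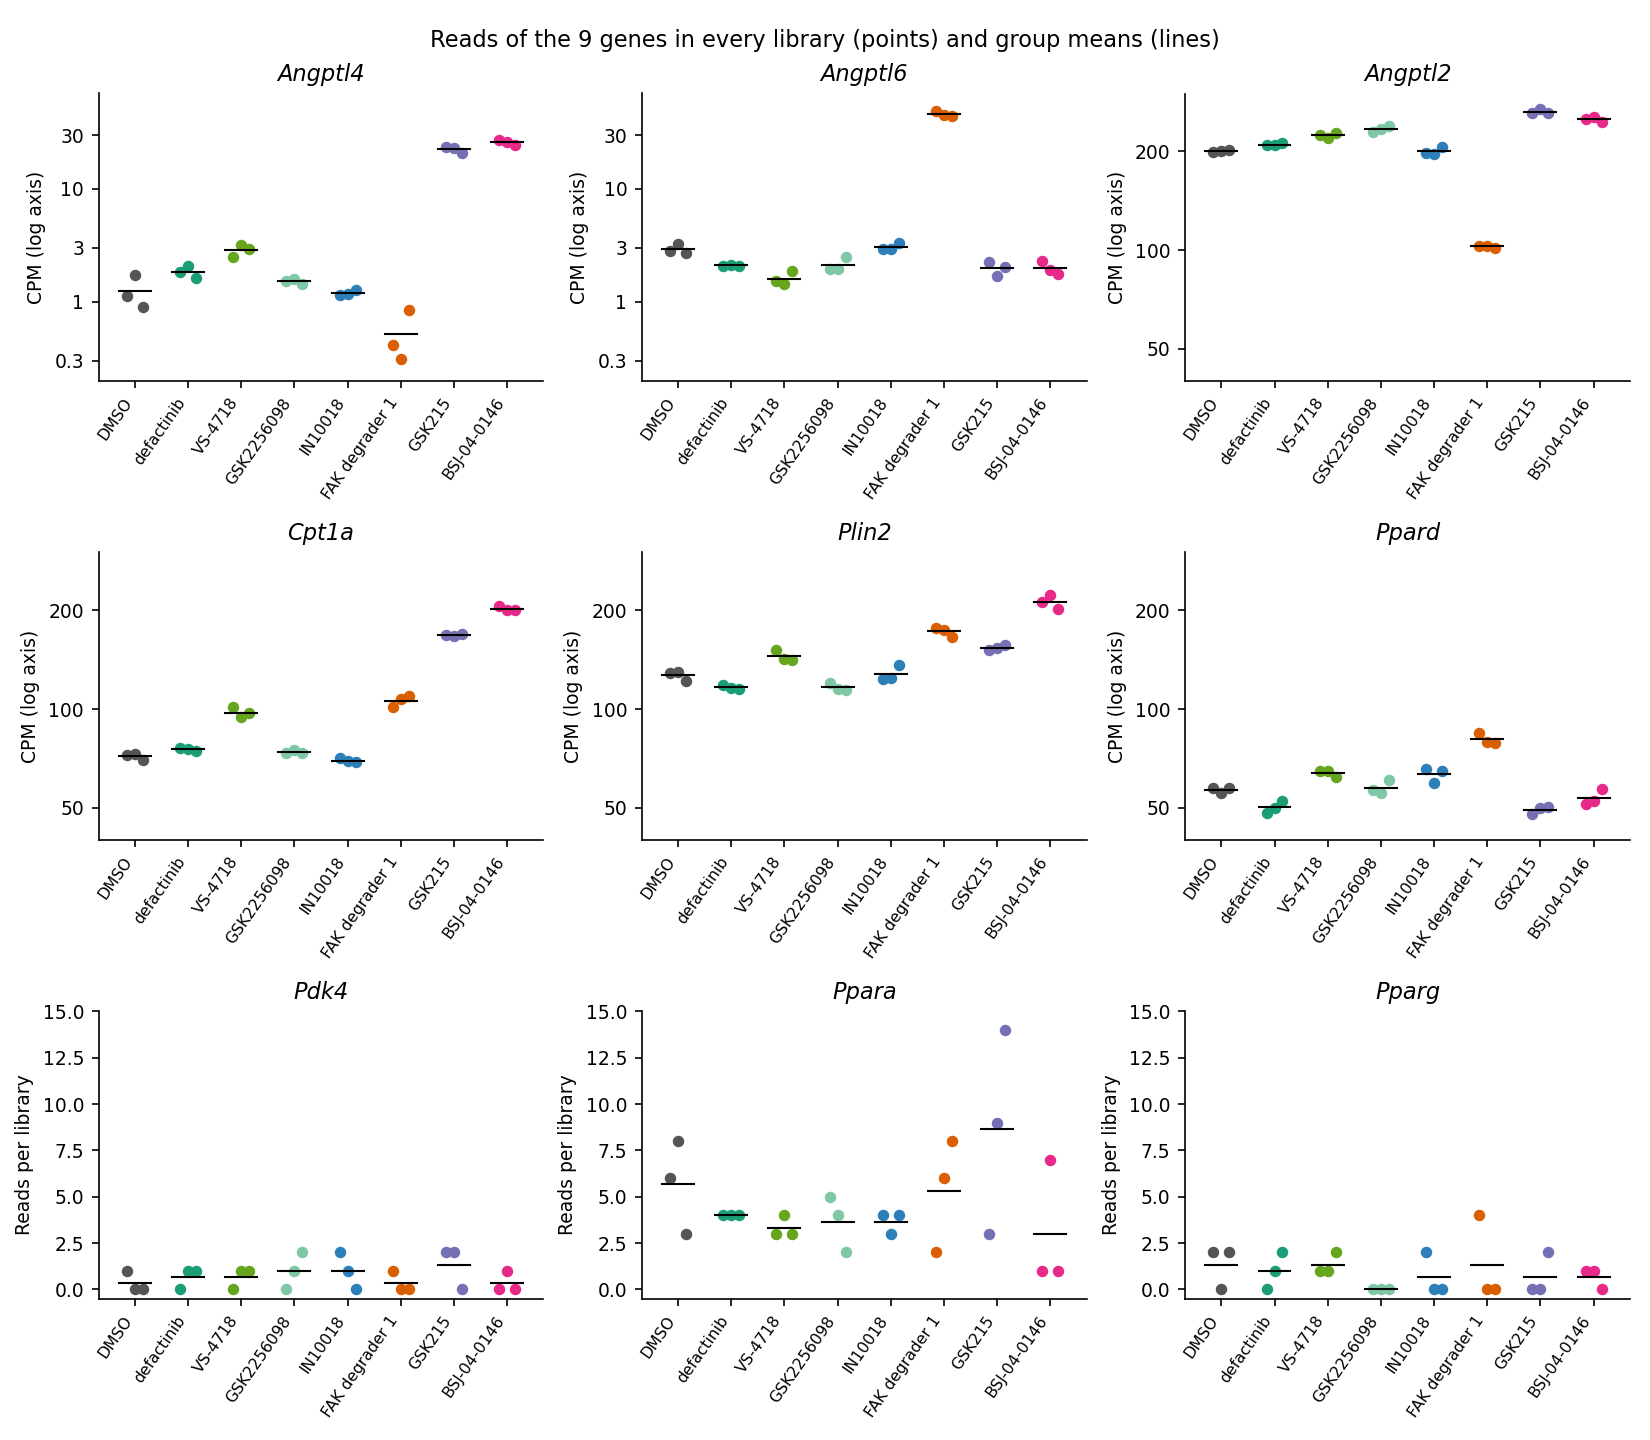
Level of each of the 9 genes in every library (points) with group means (lines), by treatment. The upper 6 panels are in CPM on log axes and the lower 3 in reads per library. *Angptl4* is set apart in GSK215 and BSJ-04-0146 (20.8 to 26.9 CPM), *Angptl6* in PROTAC FAK degrader 1 (44.2 to 48.8 CPM), and *Pdk4*, *Ppara* and *Pparg* never exceed 14 reads.

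Of the 9 genes, 6 passed the filter on low counts and 3 did not. Counts of these 6 whose 3 treated libraries did not overlap the 3 DMSO libraries are given beside the share of all 16070 genes that passed the filter, and nothing is read from them, since the genes were picked with these levels known. PROTAC FAK degrader 1 separated 6 of 6 from DMSO, 4 of them higher and 2 lower, against 69.7% of all genes (35.7% higher, 34.0% lower). GSK215 separated 6 of 6 (4 higher, 2 lower) against 60.6% of all genes (30.4% higher, 30.2% lower). BSJ-04-0146 separated 5 of 6 (4 higher, 1 lower) against 59.3% (30.2% higher, 29.1% lower), and the exception was *Ppard*. VS-4718 separated 6 of 6, with *Angptl6* the lower gene and 5 higher, against 47.6% (24.7% higher, 22.8% lower). Defactinib separated 5 of 6, all but *Angptl4*, with 2 higher and 3 lower, against 35.8% (17.5% higher, 18.2% lower). GSK2256098 separated 4 of 6 (2 higher, 2 lower) against 31.2% (15.3% higher, 15.8% lower), and *Angptl4* and *Ppard* overlapped. IN10018 separated 1 of 6, *Ppard*, which was higher, against 31.0% (15.2% higher, 15.8% lower). All 7 comparisons share the same DMSO libraries.

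**Figure D2:**
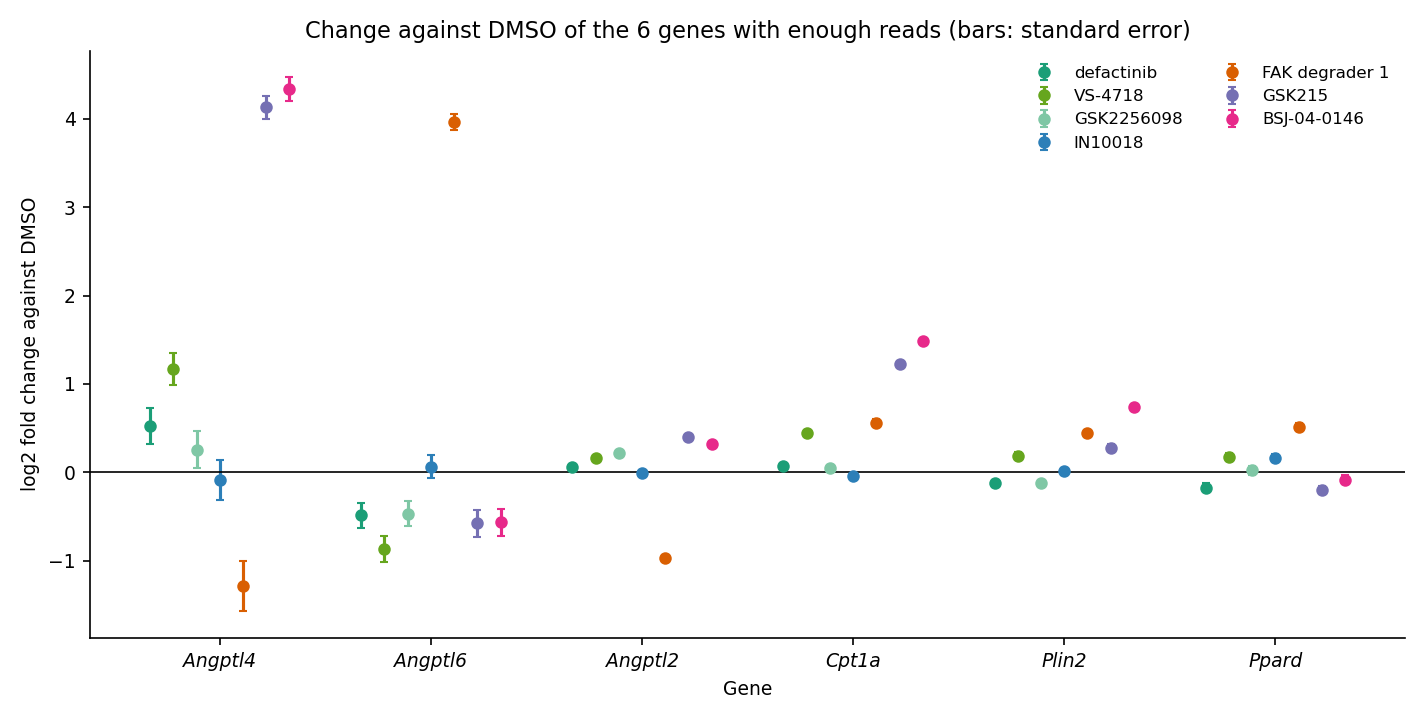
Log2 fold change against DMSO of the 6 genes with enough reads, for each of the 7 compounds (points), with the standard error of edgeR's quasi-likelihood fit (bars). *Angptl4* reaches 4.13 with GSK215 and 4.34 with BSJ-04-0146, *Angptl6* reaches 3.96 with PROTAC FAK degrader 1, and the changes of *Cpt1a*, *Plin2*, *Ppard* and *Angptl2* lie between -0.97 and 1.49.

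At matched dose, 2 pairs were fitted, PROTAC FAK degrader 1 against defactinib (1 µM each) and GSK215 against BSJ-04-0146 (0.1 µM each). VS-4718, GSK2256098 and IN10018 were also at 1 µM and were not fitted against PROTAC FAK degrader 1, and differences from them can be of another size: *Cpt1a* averaged 106 CPM with PROTAC FAK degrader 1, 97.6 with VS-4718 and 75.4 with defactinib. For PROTAC FAK degrader 1 against defactinib, all 6 genes were without overlap (4 higher, 2 lower), against 70.2% of all genes (35.5% higher, 34.7% lower). *Angptl6* was 21.8-fold higher with PROTAC FAK degrader 1 (log2 fold change 4.45, SE 0.096). *Angptl4* was 3.52-fold lower (log2 fold change -1.82, SE 0.26) and *Angptl2* 2.04-fold lower (-1.03, SE 0.030). *Ppard*, *Plin2* and *Cpt1a* were higher, by log2 fold changes of 0.69, 0.57 and 0.49.

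GSK215 and BSJ-04-0146 lay closer together, and 5 of 6 genes were without overlap (1 higher, 4 lower with GSK215), against 34.2% of all genes (15.5% higher, 18.8% lower). *Plin2* was lower with GSK215 than with BSJ-04-0146 (log2 fold change -0.46, SE 0.039), and so were *Cpt1a* (-0.27, SE 0.032), *Angptl4* (-0.21, SE 0.089) and *Ppard* (-0.12, SE 0.051). *Angptl2* was slightly higher (0.080, SE 0.029), and *Angptl6* overlapped (-0.0088, SE 0.18). PROTAC FAK degrader 1 was used at 1 µM and the other PROTACs at 0.1 µM, so their values stand side by side without a comparison of the compounds.

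Other genes of the same pathways were then examined in 5 lists of 94 genes that hold none of the 9, of which 74 passed the filter and were tested by edgeR's quasi-likelihood test, with p-values adjusted over all 16070 genes and a threshold of 0.05. Genes past the threshold numbered 60 of 74 with PROTAC FAK degrader 1 (47 higher, 13 lower), while 66.8% of all genes were past it (34.1% higher, 32.7% lower). GSK215 had 52 (29 higher, 23 lower) against 54.7% of all genes (27.4% higher, 27.2% lower). BSJ-04-0146 had 52 (32 higher, 20 lower) against 54.6% (27.7% higher, 26.9% lower). With library totals alone the split moved to 42 higher and 15 lower for GSK215 and to 40 and 15 for BSJ-04-0146. VS-4718 had 33 (17 higher, 16 lower) against 39.2% (20.4% higher, 18.9% lower). Defactinib had 16 (2 higher, 14 lower; 4 and 12 with library totals alone) against 22.4% (11.4% higher, 11.0% lower). GSK2256098 had 12 (2 higher, 10 lower; 3 and 8 with library totals alone, 0 and 10 by DESeq2) against 12.5% (6.36% higher, 6.09% lower). IN10018 had 16 (12 higher, 4 lower) against 13.3% (6.44% higher, 6.85% lower). Leaving out 1 library lowered the count to between 5 and 9 for GSK2256098 (5 without DMSO replicate 1 or 2, 7 without DMSO replicate 3, 6 without GSK2256098 replicate 2 or 3) and to between 7 and 13 for IN10018 (8 without DMSO replicate 2 or 3, 7 without IN10018 replicate 1, 9 without IN10018 replicate 3).

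The fatty acid oxidation list, 22 genes for enzymes and carriers that act after CPT1A, leaned upward with the PROTACs. Of its genes, 18 rose and 2 fell with PROTAC FAK degrader 1, and the median log2 fold change was 0.51, against 0.0045 over all genes. *Decr1*, which prepares unsaturated fatty acids for oxidation, rose from 21.3 to 39.8 CPM (log2 fold change 0.90, SE 0.06), with an adjusted p of 8.8e-17 by edgeR. BSJ-04-0146 raised 17 and lowered 1 (median 0.31 against 0.018), led by the thiolase gene *Acaa2* (29.6 to 52.7 CPM, log2 fold change 0.83). GSK215 raised 12 and lowered 2 (median 0.19 against 0.021), or 19 and 0 with library totals alone. In the order PROTAC FAK degrader 1, GSK215 and BSJ-04-0146, 90.9%, 63.6% and 81.8% passed the threshold, against 66.8%, 54.7% and 54.6% of all genes. *Hadhb*, of the trifunctional protein, fell with BSJ-04-0146 (log2 fold change -0.14) and *Crat* with PROTAC FAK degrader 1 (-0.14), and neither call held with library totals alone (adjusted p by edgeR 0.48 and 0.17). *Crat* shares 7.63% of its exon length with *Gm16323*, a gene of the opposite strand with at most 0.433 CPM, and 59 bases with *Dolpp1*, also of the opposite strand, at 16.3 to 23.9 CPM. VS-4718 raised 8 and lowered 3 (9 and 1 with library totals alone), while defactinib raised 0 and lowered 3 (1 and 2 with library totals alone), and 1 gene passed without DMSO replicate 2 or without defactinib replicate 3.

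Other PPAR targets were mixed. Of 29, only 17 passed the filter, and *Lpl*, *Cd36*, *Plin1* and *Adipoq*, which mark PPARγ activity in fat, had at most 9 reads in any library. Of the 17, 9 rose and 2 fell with PROTAC FAK degrader 1. *Acot2*, a mitochondrial acyl-CoA thioesterase, rose from 10.5 to 49.2 CPM (log2 fold change 2.23, SE 0.08; adjusted p 4.1e-25 by edgeR), although it is nearly identical to *Acot1* and the split of reads between them is uncertain. *Slc27a1*, a fatty acid transporter, rose with all 3 PROTACs, from 69.6 CPM to 159 with PROTAC FAK degrader 1 (log2 fold change 1.20, SE 0.04), 144 with GSK215 (1.05, SE 0.04) and 192 with BSJ-04-0146 (1.46, SE 0.04). *Hilpda*, a lipid droplet protein that restrains lipolysis, fell from 19.3 CPM to 8.84 with GSK215 (log2 fold change -1.12) and to 10.1 with BSJ-04-0146 (-0.93). It also fell with the kinase inhibitor VS-4718, to 12.2 CPM (-0.66), and averaged 22.4 CPM with IN10018. *Fabp5*, a fatty acid binding protein, fell with all 3, from 232 CPM to 152 with PROTAC FAK degrader 1 (log2 fold change -0.61), 151 with GSK215 (-0.62) and 163 with BSJ-04-0146 (-0.51). GSK215 raised 6 and lowered 5 genes of the list and BSJ-04-0146 raised 8 and lowered 5. With PROTAC FAK degrader 1, GSK215 and BSJ-04-0146, 64.7%, 64.7% and 76.5% passed the threshold, against 66.8%, 54.7% and 54.6% of all genes. VS-4718 raised 1 and lowered 6, defactinib raised 0 and lowered 5, GSK2256098 raised 0 and lowered 3, and IN10018 raised 4 and lowered 1. Their shares past the threshold were 41.2%, 29.4%, 17.6% and 29.4%, against 39.2%, 22.4%, 12.5% and 13.3% of all genes.

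Partners and coregulators of PPARs moved in both directions. Of 15 tested, 8 rose and 5 fell with PROTAC FAK degrader 1 (9 and 2 with library totals alone). *Pprc1*, a coactivator related to PGC-1, fell from 146 to 58.9 CPM (log2 fold change -1.31, SE 0.04; adjusted p 3.1e-28 by edgeR). It shares 2.82% of its exon length with *Ldb1*, a gene of the opposite strand that averaged 109.8 CPM in DMSO and 129 CPM with PROTAC FAK degrader 1, so part of its reads is uncertain. In the same group, *Lpin1*, a PPARα coactivator and phosphatidate phosphatase, rose from 12.4 to 22.7 CPM (log2 fold change 0.87, SE 0.08). With GSK215, *Lpin1* fell to 7.08 CPM (-0.79, SE 0.10). Among the kinase inhibitors, *Lpin1* fell with VS-4718 to 6.42 CPM (-0.96, SE 0.10) and with defactinib to 9.25 CPM (-0.43, SE 0.09). It rose with IN10018 to 19.5 CPM (0.65, SE 0.08). GSK215 raised 7 genes of the list and lowered 5 (10 and 3 with library totals alone). Without GSK215 replicate 3, 7 of these 15 genes passed the threshold in place of 12. BSJ-04-0146 raised 4 and lowered 5 genes (7 and 3 with library totals alone). Shares past the threshold were 86.7%, 80% and 60% with PROTAC FAK degrader 1, GSK215 and BSJ-04-0146, against 66.8%, 54.7% and 54.6% of all genes. *Ppargc1a*, which encodes PGC-1α and, below the level set for naming genes, was singled out after its values were seen, averaged 1.02 CPM in DMSO, 6.68 with PROTAC FAK degrader 1, 2.69 with GSK215 and 4.01 with BSJ-04-0146, with adjusted p of 3.7e-16, 6.1e-07 and 5.8e-11 by edgeR.

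A further list covered pyruvate dehydrogenase, the enzyme complex that PDK4 inhibits. It held genes for kinases and phosphatases that control the complex, for its subunits and for pyruvate carriers. Of 13 genes, 11 rose and 1 fell with PROTAC FAK degrader 1. GSK215 raised 1 and lowered 10 (3 and 7 with library totals alone), and BSJ-04-0146 raised 2 and lowered 8 (3 and 6 with library totals alone). Past the threshold in these 3 groups were 92.3%, 84.6% and 76.9% of the list, against 66.8%, 54.7% and 54.6% of all genes. *Pdk2*, a kinase of the PDK4 family, rose with all 3, from 5.52 CPM to 20.1 with PROTAC FAK degrader 1 (log2 fold change 1.86, SE 0.08), 11.9 with GSK215 (1.11, SE 0.09) and 12.2 with BSJ-04-0146 (1.14, SE 0.09). *Pdk1*, of the same family, rose with IN10018 from 75.8 to 123 CPM (log2 fold change 0.70, SE 0.04) and fell with VS-4718 to 40.6 CPM (-0.90, SE 0.05). It rose with PROTAC FAK degrader 1 to 182 CPM (log2 fold change 1.26, SE 0.04) and fell with GSK215 to 44.6 CPM (-0.76, SE 0.05) and with BSJ-04-0146 to 45.8 CPM (-0.73, SE 0.05). The phosphatase gene *Pdp2* fell with every PROTAC, by log2 fold changes of -0.69, -0.91 and -0.78.

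In the list of other angiopoietins and lipase genes, 7 of 14 passed the filter. Of these, 1 rose and 3 fell with PROTAC FAK degrader 1, GSK215 raised 3 and lowered 1, and BSJ-04-0146 raised 1 and lowered 1 (3 and 1 with library totals alone). The shares past the threshold, 57.1%, 57.1% and 28.6%, stood beside 66.8%, 54.7% and 54.6% of all genes. *Lmf1*, which helps lipases fold, rose from 29.8 to 33.8 CPM with PROTAC FAK degrader 1 and to 35.1 CPM with GSK215 (log2 fold changes 0.18 and 0.24). Below the level set for naming, and singled out after its values were seen, the endothelial lipase gene *Lipg* fell from 3.94 CPM in DMSO to 0.558 with PROTAC FAK degrader 1, 1.09 with GSK215 and 2.00 with BSJ-04-0146 (adjusted p by edgeR 3.4e-14, 2.4e-10 and 1.3e-05). *Angptl7*, a further angiopoietin-like gene singled out in the same way, averaged 0.687 CPM in DMSO and 3.61 with GSK215 (log2 fold change 2.39, SE 0.26; adjusted p 3.7e-10 by edgeR) and 1.07 with BSJ-04-0146.

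**Figure D3:**
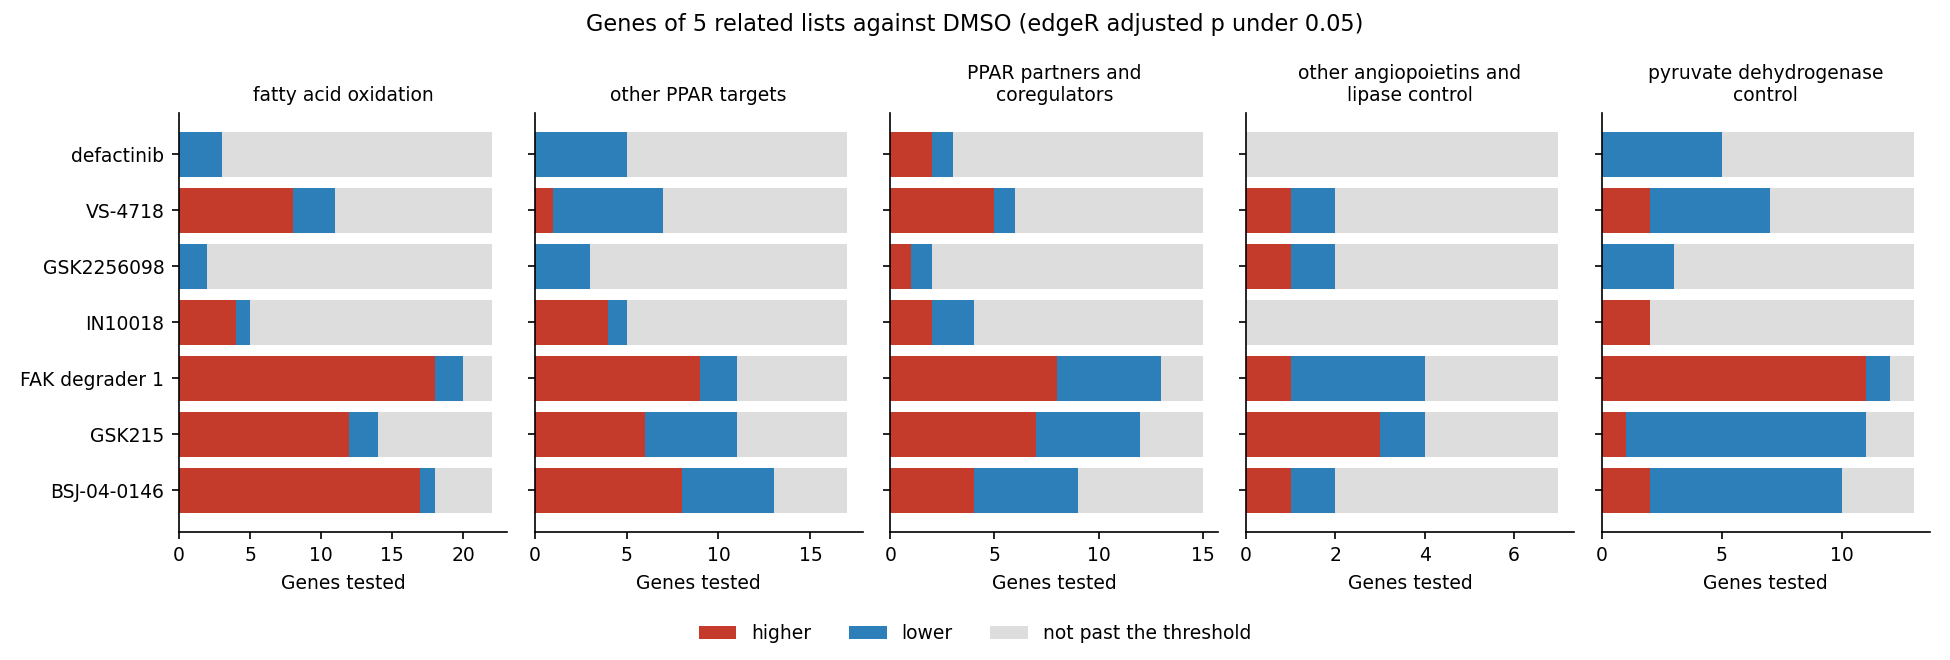
Number of genes past the threshold in each of the 5 related lists for each compound against DMSO, by direction, out of the genes tested (bar length). Red marks genes that were higher, blue lower and grey not past the threshold. The pyruvate dehydrogenase control list also holds subunits and pyruvate carriers, and 11 of its 13 genes are higher with PROTAC FAK degrader 1. With GSK215, 10 of the 13 are lower.

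In the matched-dose pairs, 64 of the 74 listed genes differed between PROTAC FAK degrader 1 and defactinib (49 higher and 15 lower with PROTAC FAK degrader 1; 68.9% of all genes were past the threshold, 34.9% higher and 34.0% lower), 19 of 22 oxidation genes among the higher. GSK215 and BSJ-04-0146 differed for 29 of 74 (5 higher and 24 lower with GSK215; 22.5% of all genes, 9.88% higher and 12.6% lower). Of the oxidation genes, 12 were lower and 1 higher with GSK215. *Slc27a1* was lower with GSK215 by a log2 fold change of -0.41 (SE 0.04; adjusted p 9.6e-11 by edgeR) and *Acaa2* by -0.37 (SE 0.05). For the other 45 no difference passed the threshold, among them *Pdk2* (log2 fold change -0.032, 95% interval -0.21 to 0.14).

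Finally, the genes with the group profile most like that of a member were sought for the 3 members with the widest range. Likeness was the root mean square difference between the 8 group means of log2(CPM + 4), each centred on its own mean, over 10279 genes averaging at least 5 CPM. It is a description across 8 groups that share libraries and depth. Nearest to *Angptl6* were *Ppp1r15a* (0.146), *Gadd45a* (0.280) and *Stbd1* (0.291), which averaged 168, 139 and 41.4 CPM with PROTAC FAK degrader 1 against 23.1, 16.9 and 7.31 CPM in DMSO. Nearest to *Angptl4* were *Gas7* (0.251), *Tns1* (0.257) and *Gdpd2* (0.311). *Gas7* averaged 15.3 CPM in DMSO, 88.2 with GSK215 and 99.0 with BSJ-04-0146. Nearest to *Cpt1a* were *Rin2* (0.104), *Kcnh2* (0.115) and *Fam102a* (0.126). By Pearson correlation of the same means, none of the 3 nearest genes was shared for any of these members. The gene ranked closest to *Angptl4* by that measure, *Kank3* (chr17:33810519-33822918), lies 28688 bases from it on the same chromosome and averaged 3.66 CPM in DMSO, 14.6 with GSK215 and 17.2 with BSJ-04-0146.

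**Figure D4:**
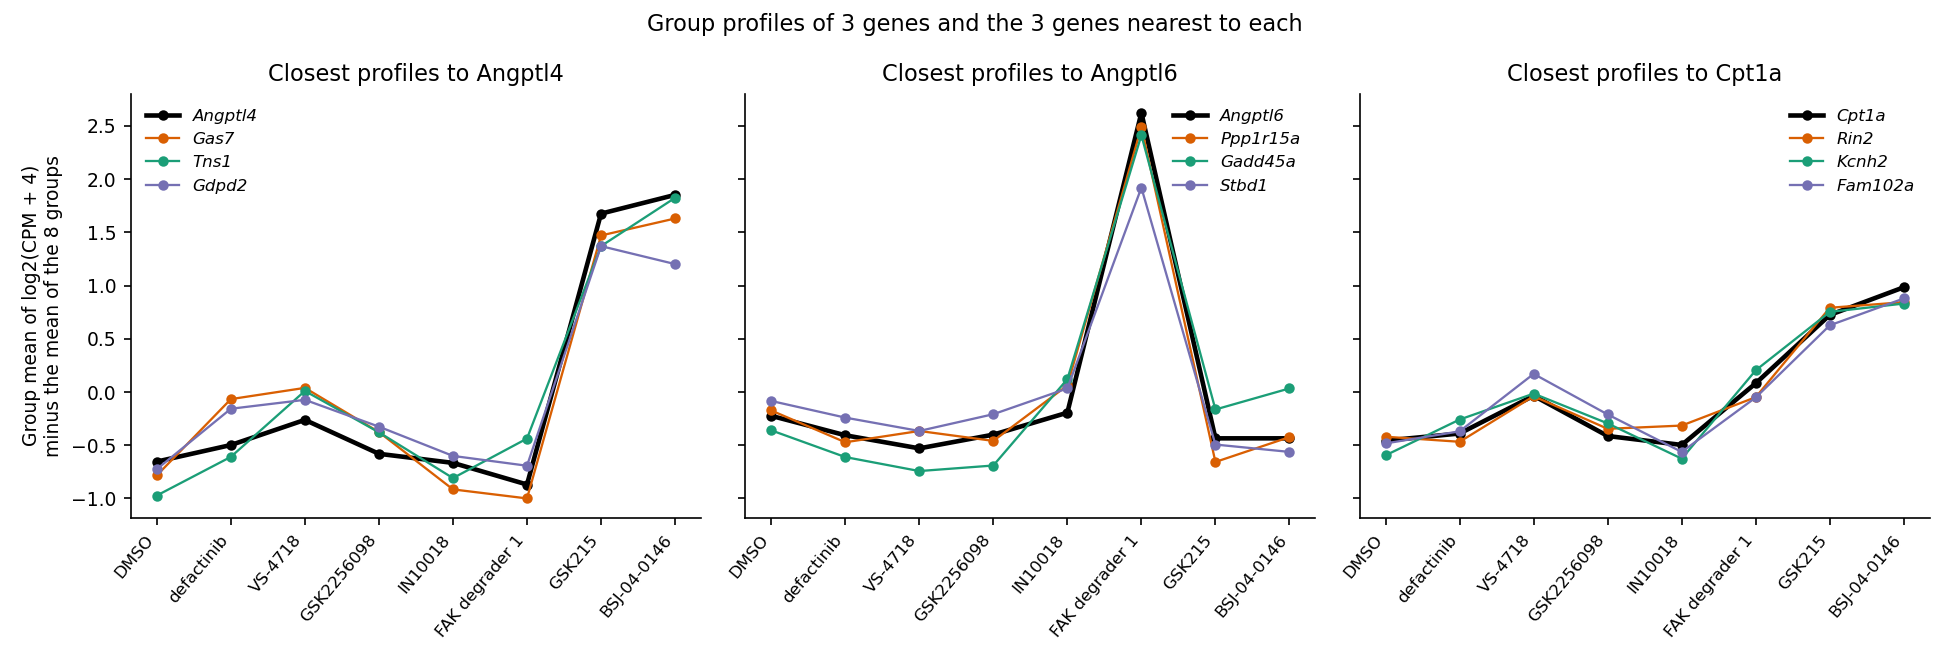
Group means of log2(CPM + 4), minus the mean of the 8 groups, for *Angptl4*, *Angptl6* and *Cpt1a* (black) and the 3 genes nearest to each (colours), across the 8 treatments on the horizontal axis. The *Angptl6* profile has a single peak at PROTAC FAK degrader 1, the *Angptl4* profile rises at GSK215 and BSJ-04-0146, and the *Cpt1a* profile rises by steps over the 3 PROTACs.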

How the data were processed

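RNA of 24 MS03 libraries in 8 groups of 3 was analysed from the gene-by-library table of raw counts that the authors deposited. The submitters' processing notes name Trimmomatic 0.36, STAR 2.5.2b, featureCounts of Subread 1.5.2 and the GRCm38 build; the strand setting and annotation release are not given in the sources used here. Groups were taken from the sample labels, and p-values cover the spread between these 3 samples per group.

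The 9 genes and the 5 related lists were chosen with earlier results of these data known. Counts were filtered with filterByExpr (16070 of 49315 genes kept), scaled by TMM and fitted over all 24 libraries, 1 coefficient per group, by edgeR 4.0.16 (R 4.3.3) with the quasi-likelihood test, two-sided, adjusted by Benjamini-Hochberg over all genes tested at a threshold of 0.05. CPM used TMM-scaled library totals, a fold change used edgeR's prior count of 0.125, and its SE was its size over the square root of the F statistic. The procedure was tested on simulated data. Listed genes were named by the largest rise and fall past the threshold per list and compound, with at least 5 CPM on average and no overlap with DMSO; the 3 nearest profiles were sought for the 3 members with the widest range of group means. Some genes that met this rule are not reported here. Intervals are 95% and cover fitting error only.

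Alternatives were library totals alone, no filter, DESeq2 1.42.0, limma-trend (limma 3.58.1) on log2(CPM + 4), the 6 libraries compared alone, a replicate block, a 2-fold minimum and leaving out each library. Libraries of a group differed by more than counting noise (chi-square per degree of freedom 1.80 to 9.45 over 24 pairs), so none was a copy. Gene positions are from GENCODE M21 (48970 of 49315 identifiers matched).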

Additional observations from a re-analysis of the deposited data

How the results depend on the processing

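Fold changes are log2 values. For the 6 genes with enough reads, direction held under every alternative run wherever the libraries of the groups compared did not overlap. Signs turned only among overlapping groups. *Ppard* with BSJ-04-0146, at -0.082, turned to 0.027 with library totals alone. The other values that changed sign in at least 1 setting were *Ppard* with GSK2256098, *Angptl2*, *Angptl4* and *Plin2* with IN10018, and *Angptl6* between GSK215 and BSJ-04-0146. That scaling moved the median of all genes from 0.021 to 0.14 for GSK215, from 0.018 to 0.13 for BSJ-04-0146 and from 0.0045 to 0.086 for PROTAC FAK degrader 1. Under it, *Angptl2* was 0.081 with defactinib, 0.20 with VS-4718, -0.89 with PROTAC FAK degrader 1, 0.52 with GSK215 and 0.43 with BSJ-04-0146. *Ppard* was 0.21 with VS-4718, 0.60 with PROTAC FAK degrader 1 and -0.076 with GSK215. *Cpt1a* was 0.65, 1.35 and 1.60, and *Plin2* 0.52, 0.40 and 0.85, with PROTAC FAK degrader 1, GSK215 and BSJ-04-0146. Against defactinib, PROTAC FAK degrader 1 had -0.97 for *Angptl2*, 0.75 for *Ppard*, 0.56 for *Cpt1a*, 0.63 for *Plin2* and 4.51 for *Angptl6*. Limma-trend on log2(CPM + 4) shrinks low genes by construction. It gave *Angptl4* 0.16 with defactinib, 0.39 with VS-4718, -0.22 with PROTAC FAK degrader 1, 2.33 with GSK215 and 2.51 with BSJ-04-0146, and -0.37 for PROTAC FAK degrader 1 against defactinib. *Angptl6* was -0.18, -0.31, -0.18, 2.85, -0.21 and -0.21 with defactinib, VS-4718, GSK2256098, PROTAC FAK degrader 1, GSK215 and BSJ-04-0146, and 3.03 against defactinib. *Angptl2* was -0.94 with PROTAC FAK degrader 1 and -1.003 against defactinib, and *Cpt1a* 1.18 with GSK215 and 1.44 with BSJ-04-0146. Without the filter *Angptl2* was 0.29 with BSJ-04-0146. The cause of the moves under library totals and without the filter was not tested.

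With a minimum change of 2-fold, listed genes past the threshold fell to 0 with defactinib, 3 with VS-4718, 1 with GSK2256098, 0 with IN10018, 9 with PROTAC FAK degrader 1, 8 with GSK215 and 6 with BSJ-04-0146, since most changes were smaller than that. Leaving out each library in turn gave 13 to 14, 31 to 33, 5 to 9, 7 to 13, 56 to 58, 45 to 52 and 47 to 53 in the same order, 60 to 63 for PROTAC FAK degrader 1 against defactinib and 22 to 32 for GSK215 against BSJ-04-0146. Replicate numbers did not pair the libraries (correlation of same-numbered deviations -0.253 to 0.197, median -0.0127). A fit with the replicate number as a block gave 17, 33, 10, 16, 59, 52 and 52 listed genes, with 64 and 29 in the matched pairs, and kept every value of the 6 genes within the spread of replicates. Depth limited *Pdk4*, *Ppara* and *Pparg*, for which no difference could be measured.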
